A study of Mus musculus with 16 samples.

Results

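Sorted skeletal cells of mouse femurs fell into 2 groups of subsets, and the mitochondrial alleles of these groups were compared. The CD24/CD29 group held the subsets sorted as CD24, CD24_CD29 and CD29, with 6 libraries. The Thy/6C3/CD105 group held the subsets Thy, 6C3, Thy_6C3 and CD105, with 8 libraries. Together they made 14 of the 16 libraries of the series, and the 2 libraries of CD45 cells, CD45 being a marker of blood-lineage cells, were left out of both groups. The grouping follows the sort labels, and no allele fraction enters it. Each subset had a replicate 1 and a replicate 2, so that a replicate number held 7 libraries of the comparison, 3 in one group and 4 in the other.

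All animals, in both groups, were 3-month-old mice homozygous for D257A in PolG, and no other treatment is given in the labels. Cells were freed from the femurs, sorted by flow cytometry and read by bulk ATAC-seq, in which Tn5 transposase cuts and tags accessible DNA. The labels give neither the gates, nor how many mice stand behind a library, nor whether mice were pooled, so every p-value reflects how far these libraries scatter, which can be a technical scatter. The tables hold mitochondrial DNA only, so the sorted identities could not be checked against marker genes, and libraries from mice with intact PolG were not analysed here.

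PolG copies mitochondrial DNA, and the D257A change takes away its proofreading, so that base substitutions gather in the many copies of the mitochondrial genome that each cell carries. An allele then sits at an intermediate fraction of copies, called heteroplasmy. It can be passed on from the mother or an early precursor and so be present in many cell types, or arise later and be limited to the descendants of one cell. CD24 is a small glycoprotein tethered to the surface of many immature cells, CD29 is the integrin beta 1 chain, and CD105 is endoglin, a co-receptor for ligands of the transforming growth factor beta family. Thy, 6C3 and CD105 are surface markers used to part skeletal stem, progenitor and stromal cells, and the present grouping asks whether the 2 sets of subsets carry different mitochondrial alleles.

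Allele names give the GRCm38 base, the position on the mitochondrial chromosome, and the base found instead. Below are the surroundings of alleles on which the comparison turned, with 10 bases on each side, in the reference strand and with the changed base in capitals. The first 4 had the smallest p of the group test among alleles higher or lower in the CD24/CD29 group, the next 4 had fractions that did not overlap between the groups within a replicate number, and the last 3 were counted in libraries of one group only in replicate 1.
C1308T, mt-Rnr2 (gene 1094-2675), chrM:1298-1318: aaacttctaaCtaaaagaatt
T6895C, TrnS1 (gene 6870-6938), chrM:6885-6905: tcgaacccccTaaaattggtt
C4528T, ND2 (gene 3914-4951), chrM:4518-4538: tactcaacctCataatctata
C7446T, COX2 (gene 7013-7696), chrM:7436-7456: gtcgttctgcCaatagaactt
C6918T, TrnS1 (gene 6870-6938), chrM:6908-6928: aagccaatctCatatcctata
G5026A, TrnA (gene 5018-5086), chrM:5016-5036: gataaggactGtaagacttca
A11579G, TrnH (gene 11546-11612), chrM:11569-11589: tagactgtgaAtctgacaaca
C14024T, ND6 (gene 13552-14070), chrM:14014-14034: taacccaagaCaaccaaccaa
A10077G, ND4L (gene 9877-10173), chrM:10067-10087: tagttttcgcAgcctgcgaag
C3875T, TrnM (gene 3845-3913), chrM:3865-3885: ctatcgggccCataccccgaa
A5328G, COX1 (gene 5328-6872), chrM:5318-5338: cattttacctAtgttcattaa

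Mean coverage per position ran from 6569 to 77252 counts in the CD24/CD29 group, with a median of 16907 over its 6 libraries, and from 14843 to 39931 in the Thy/6C3/CD105 group, with a median of 26305 over 8. The groups overlapped in depth, and the log2 difference of -0.29 did not exceed the spread between libraries (exact permutation p = 0.544, two-sided, 0.929 after adjustment over 7 measures). The CD24/CD29 group held both the deepest library, CD29 replicate 1, and the shallowest, CD24_CD29 replicate 2. With 0 counts, an allele could still be present at up to 0.0457% in the shallowest and 0.00388% in the deepest library, which is 3 counts at mean coverage. Among the alleles named here the widest exact (Clopper-Pearson) 95% interval was that of C11959T in CD24_CD29 replicate 2, from 22.2% to 24.1% around 23.1%. These intervals and limits cover counting error only. One library stood apart before any comparison: Thy replicate 2 carried a raised level of A>C and T>G over the whole mitochondrial genome, with mean fractions of 76.5 and 66.5 per 10000. Results that it touches are given with and without it.

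No summary of the mitochondrial genome differed between the groups beyond the spread between libraries. Mutation load, the share of non-reference bases averaged over all positions, was 0.442% ± 0.0379 (SD, n = 6) in the CD24/CD29 group and 0.532% ± 0.236 (SD, n = 8) in the Thy/6C3/CD105 group. The higher mean of the second group came with a single high library, Thy replicate 2 at 1.11%. The medians of the groups were 0.458% and 0.456%, and the exact permutation test within replicate numbers gave p = 0.590 (two-sided, adjusted p = 0.929). Without Thy replicate 2 the second group had 0.449% ± 0.0237 (SD, n = 7), and the difference was -0.00607 percentage points (exact permutation p = 0.747). In every library most of the load lay in alleles under 1%. That part was lowest in CD24 replicate 2, at 0.366% of a load of 0.385%, and highest in Thy replicate 2, at 0.898%. The load thus mainly compares low-level differences from the reference, whose source was not tested.

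Alleles that reached 1% of reads in a library, with 5 counts as a minimum, are called counted alleles. The CD24/CD29 group had 139 and 125 of them in CD24, 280 and 416 in CD24_CD29, and 113 and 202 in CD29, for replicates 1 and 2. The Thy/6C3/CD105 group had 147 and 2530 in Thy, 146 and 119 in 6C3, 142 and 266 in Thy_6C3, and 98 and 120 in CD105. The CD24_CD29 libraries and Thy replicate 2 were the highest, while CD24, CD29 and the remaining libraries of the second group overlapped. With all libraries the mean was 212.5 ± 117.5 (SD, n = 6) against 446 ± 844 (SD, n = 8) (exact permutation p = 0.922, two-sided). Without Thy replicate 2 the second group fell to 148.3 ± 54.9 (SD, n = 7), so that the sign of the difference turned, with an exact permutation p of 0.291 (0.512 after adjustment). The load carried by counted alleles turned in the same way, from a difference of -0.0184 to 0.00586 percentage points (exact permutation p = 0.929 and 0.259).

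The kind of allele did not set the groups apart either. Transitions, the changes A>G, G>A, C>T and T>C, made 63.4% ± 6.03 (SD, n = 6) of the counted alleles in the CD24/CD29 group and 52.3% ± 20.2 (SD, n = 8) in the other. The difference of 11.05 percentage points (exact permutation p = 0.211, adjusted p = 0.929) dropped to 3.98 without Thy replicate 2, whose share was 3.79% (exact permutation p = 0.243, adjusted p = 0.512). Of the counted alleles in protein genes, 68.1% ± 7.005 (SD, n = 6) and 71.0% ± 6.597 (SD, n = 8) changed the protein (exact permutation p = 0.327, adjusted p = 0.929). The second mean was 69.5% ± 5.33 (SD, n = 7) without Thy replicate 2, which had 81.9%, and the difference went from -2.92 to -1.73 percentage points (exact permutation p = 0.537). Alleles counted in 1 library and no other of its replicate number ran from 10 to 276 per library in the CD24/CD29 group. The range was 2 to 2375 in the Thy/6C3/CD105 group (exact permutation p = 0.925 for the difference). When the 2 libraries of a subset were averaged and whole subsets were exchanged, which 35 arrangements allow with a smallest p of 0.0286, the lowest of the 7 p-values was 0.286, for the transition share (exact permutation test).

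**Figure D1:**
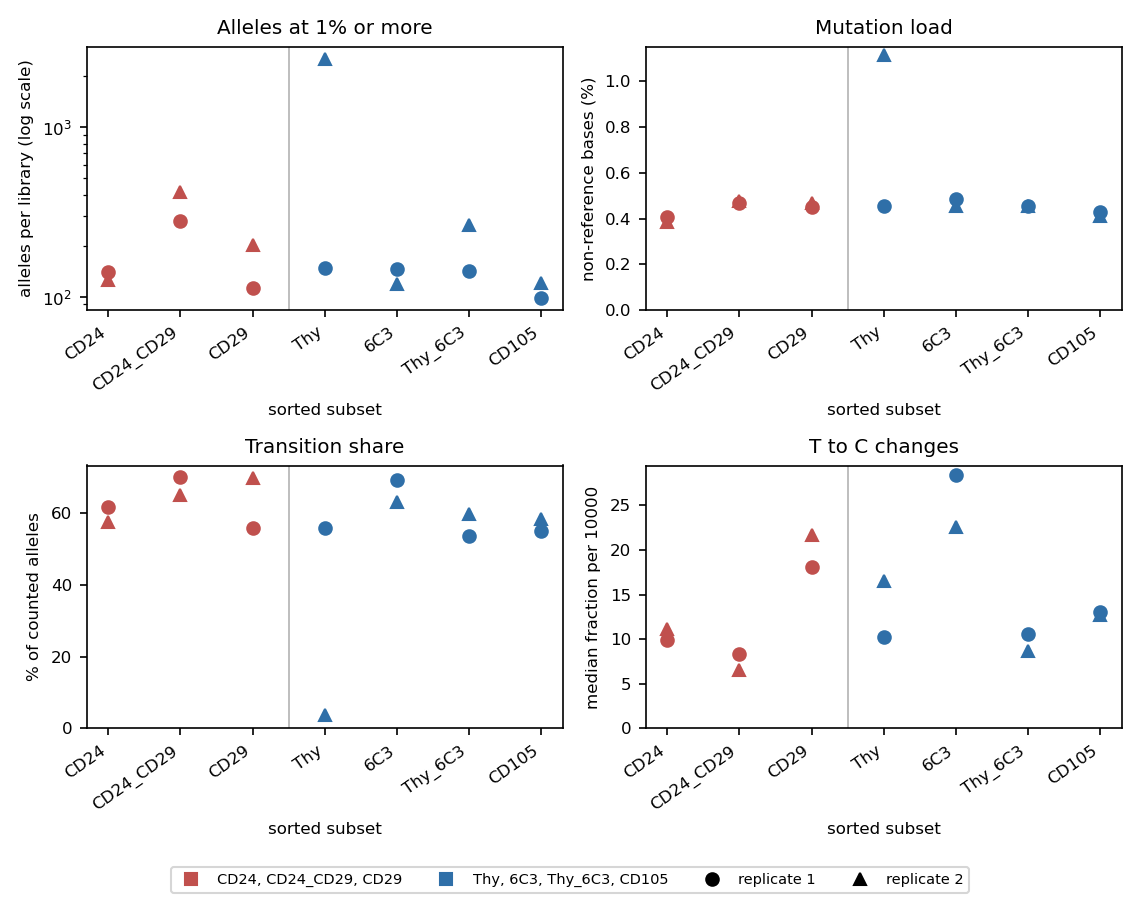
Counted alleles per library (log scale), mutation load in percent, transition share in percent of counted alleles and the median T to C fraction per 10000, by sorted subset, with circles for replicate 1, triangles for replicate 2 and one point per library. The groups left and right of the grey line overlap in all 4 panels; Thy replicate 2 stands apart at 2530 alleles, a load of 1.11% and a transition share of 3.79%, and the T to C median is high in CD29 on one side and 6C3 on the other.

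Levels of the 12 substitution classes were compared as mean fractions over all positions with that reference base, and 0 of 12 differed (lowest exact permutation p = 0.202 for G>A, two-sided, adjusted p = 0.809 for all 12). G>A stood at 8.35 ± 0.441 per 10000 (SD, n = 6) in the CD24/CD29 group and 8.80 ± 0.815 (SD, n = 8) in the Thy/6C3/CD105 group. The classes with the highest group medians were G>T, at 28.7 and 31.2 per 10000, and C>A, at 28.5 and 30.9. Without Thy replicate 2 the A>C difference went from -8.15 to 0.174 per 10000 and the T>G difference from -7.11 to 0.0715. The difference of the group means in these classes was thus largely that of a single library.

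A class that varied strongly between subsets was split by the grouping. The median T>C fraction over positions was 18.1 and 21.7 per 10000 in CD29 and 28.4 and 22.6 in 6C3, for replicates 1 and 2. The other CD24/CD29 libraries had 9.96 and 11.1 in CD24 and 8.39 and 6.53 in CD24_CD29. Thy had 10.2 and 16.5, Thy_6C3 10.6 and 8.72, and CD105 13.1 and 12.7. Each group thus held 1 subset that was high in both replicates, and the highest of the remaining libraries was Thy replicate 2. A>G, the same change read on the opposite strand, ranked in the same way, with medians of 10.7 and 11.3 in CD29, 15.1 and 12.1 in 6C3 and 3.58 to 5.94 in CD24 and CD24_CD29. The level of CD29 and 6C3 was not that of a single stretch. Over windows of 2000 positions the lowest T>C median was 10.6 and 11.5 in CD29 and 17.6 and 14.6 in 6C3. In Thy replicate 2 the lowest was 13.5, above that of both CD29 libraries. The mean T>C fraction was 18.9 ± 4.19 per 10000 (SD, n = 6) against 19.9 ± 6.16 (SD, n = 8) (exact permutation p = 0.788, adjusted p = 0.809).

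By gene group, the load of counted alleles did not differ in any of 7 regions (exact permutation p = 0.876 to 0.925, two-sided, adjusted p = 0.925). The control region, which holds the promoters and the origin of heavy-strand replication and codes for no protein, carried the highest load in both groups, from 0.0473% to 0.0674% with a median of 0.0583% in the CD24/CD29 group, and from 0.0503% to 0.294% with a median of 0.0567% in the other. Its 18 alleles counted in all 7 libraries of replicate 1 all lay from A16092T to T16150A, a short part of its 877 positions. The load of the region is thus not spread evenly over it, and the load outside that stretch was not measured apart. The remaining regions had lower medians than the control region as a whole, in each case with that of the CD24/CD29 group above that of the other. Genes of complex I, the first enzyme of the respiratory chain, had medians of 0.0233% and 0.0208%. Genes of complex IV, cytochrome c oxidase, had 0.0144% and 0.0117%. The single complex III gene, which encodes cytochrome b, had 0.0158% and 0.00998%. The ATP synthase genes, which encode 2 subunits of the enzyme that makes ATP, had 0.0297% and 0.0279%. Ribosomal RNA genes had medians of 0.0174% and 0.0149%, and transfer RNA genes 0.0273% and 0.0251%. Group ranges overlapped in all of these. Without Thy replicate 2 the CD24/CD29 mean was the higher in all 7 regions, by 0.0027 (control region) to 0.0071 percentage points (ribosomal RNA genes), with exact permutation p from 0.247 to 0.449 and adjusted p of 0.449 for each. This order rested on the CD24_CD29 subset. In an alternative chosen after seeing the data, the CD24 and CD29 libraries alone had means below those of the second group without Thy replicate 2 in 6 of 7 regions, such as 0.021% against 0.0212% in complex I genes and 0.0148% against 0.0154% in ribosomal RNA genes, and the control region was the exception at 0.0576% against 0.056%. That difference was not tested.

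Single alleles were tested across all 3475 alleles that reached 1% with at least 5 counts in 1 or more of the 14 libraries. The edgeR quasi-likelihood test, with the replicate number as a block, called 0 of them at an adjusted p of 0.05 or less (0% of alleles tested), and the lowest Benjamini-Hochberg adjusted p was 0.871. At an unadjusted p under 0.05 there were 48 alleles (1.38%), 17 higher in the CD24/CD29 group (0.489%) and 31 lower (0.892%). DESeq2, a quasi-binomial model and limma called 0 as well, with 75, 69 and 47 alleles at an unadjusted p under 0.05. A test of whether the group difference itself differed between replicates 1 and 2 also called 0 (0%), with 44 alleles (1.27%) at an unadjusted p under 0.05 and a lowest adjusted p of 0.955. The group test again called 0 without Thy replicate 2, both over the same 3475 alleles (89 at an unadjusted p under 0.05) and over the 1115 alleles chosen anew without it (26). In the main test the share of 1.38% lies below what a cut-off of 0.05 would give without any difference. That 0 alleles were called thus does not show that the groups are equal. The alleles described next did not pass, and their values are given as measured.

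Of the 5 alleles with the smallest p among those higher in the CD24/CD29 group, 2 lay in RNA genes. C1308T, in mt-Rnr2, the RNA of the large mitochondrial ribosomal subunit, had 0.0868% in CD24, 0.446% in CD24_CD29 and 0.0918% in CD29 of replicate 1, against 0.0205% in Thy, 0.0636% in 6C3, 0% in Thy_6C3 and 0.0104% in CD105. In replicate 2 it had 0.268%, 1.40% and 0.0202%, against 0.0332%, 0.0166%, 0% and 0.144% in the same order. The groups did not overlap in replicate 1 and overlapped in replicate 2, where CD29 lay below Thy and CD105, and the log2 odds ratio was 2.86 ± 0.944 (SE; edgeR adjusted p = 0.871). T6895C, in TrnS1, a transfer RNA for serine, had 0.111%, 0.184% and 0.0782% against 0.117%, 0.113%, 0.0423% and 0.034% in replicate 1. In replicate 2 it had 0.241%, 1.12% and 0.245% against 0.0642%, 0.138%, 0.0398% and 0.0399%. Here it was replicate 2 in which the groups did not overlap, and the log2 odds ratio was 1.68 ± 0.537 (SE; edgeR adjusted p = 0.871).

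The remaining 3 were missense changes in complex I subunits. C3313T (ND1 S188L) had 0.982%, 0.595% and 0.374% in CD24, CD24_CD29 and CD29 of replicate 1, above 0.159% to 0.312% in the Thy/6C3/CD105 group. In replicate 2 the CD24/CD29 libraries had 0.135%, 1.06% and 0.383%, and the other group reached 0.354%, so that CD24 fell inside its range. C3929T (ND2 L6F) was highest in CD24_CD29 replicate 2, at 1.43%, and at 0.0443% to 0.298% in the other CD24/CD29 libraries of replicate 2. G9519A (ND3 A21T) was highest in CD29 replicate 2, at 1.09%, and had 0% in CD24_CD29 of the same replicate. Of these 5 alleles, 4 reached 1% in CD24_CD29 replicate 2 and nowhere else, and G9519A did so in CD29 replicate 2 and nowhere else. All 5 thus entered the alleles tested through the group in which they were then the higher, so their direction supports nothing. CD24_CD29 replicate 2 is also the shallowest library, and the part of its depth in the result was not tested.

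Among the 5 with the smallest p in the opposite direction, 4 lay in protein genes and 1 in a transfer RNA gene. C4528T, a synonymous change in ND2 (L205L), had the smallest p of all alleles tested. It stood at 0%, 0% and 0.0542% in CD24, CD24_CD29 and CD29 of replicate 1, against 0.757% in Thy, 0.561% in 6C3, 0.0358% in Thy_6C3 and 0.112% in CD105. In replicate 2 it had 0.0207%, 0.0275% and 0.0339%, against 0.271%, 0.04%, 1.03% and 0.0638%. The groups did not overlap in replicate 2, and in replicate 1 Thy_6C3 fell below CD29. The log2 odds ratio was -3.03 ± 0.90 (SE; edgeR adjusted p = 0.871).

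C7446T (COX2 P145L) had 0.0271%, 0.0125% and 0.227% against 0.531%, 0.13%, 0.329% and 0.243% in replicate 1. In replicate 2 it had 0.171%, 0.366% and 0.332% against 0.46%, 0.546%, 1.49% and 0.743%. COX2 carries the copper centre that takes electrons from cytochrome c. The 3 CD24/CD29 libraries lay below all 4 others in replicate 2, and in replicate 1 CD29 lay above 6C3 (log2 odds ratio -1.80 ± 0.557 SE; edgeR adjusted p = 0.871). C10339T (ND4 S58L) was highest in Thy_6C3 replicate 2, at 1.68%, and at 0.0591% to 0.134% in the 3 CD24/CD29 libraries of that replicate. C11889T (ND5 P50S) was highest in Thy_6C3 replicate 1, at 1.06%, and at 0.0175% to 0.068% in the 3 CD24/CD29 libraries beside it. Of the 4 protein-gene alleles, 3 reached 1% in Thy_6C3 replicate 2 alone and C11889T in Thy_6C3 replicate 1 alone. These 4 too entered the alleles tested through the group in which they were then the higher, so their direction supports nothing.

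The fifth was A11579G, in TrnH, the transfer RNA for histidine, and it was the one of the 10 with 1% or more in several libraries. In replicate 2 it had 0.817% in CD24, 0.389% in CD24_CD29 and 1.49% in CD29, against 2.098% in Thy, 1.94% in 6C3, 2.76% in Thy_6C3 and 2.62% in CD105. The groups did not overlap, and neither did the nearest exact 95% intervals, 1.37% to 1.61% in CD29 and 1.79% to 2.105% in 6C3. In replicate 1 the allele had 0.163%, 0.0713% and 0.212% against 0.182%, 0.666%, 0.198% and 0.272%, with CD29 inside the range of the second group. The left-out CD45 libraries had 0.237% and 1.89%. The log2 odds ratio was -1.30 ± 0.419 (SE; edgeR adjusted p = 0.871).

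**Figure D2:**
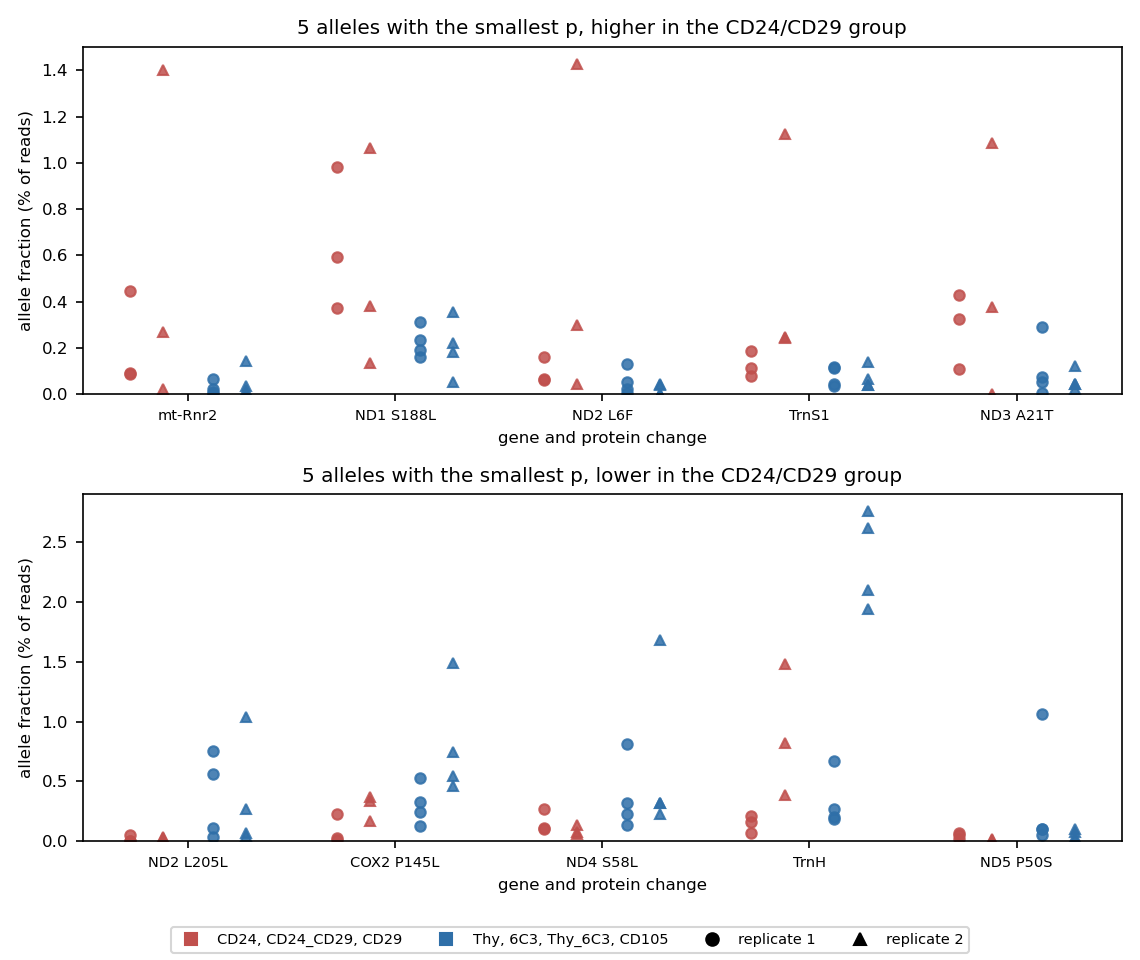
Allele fraction in percent of reads for the 5 alleles with the smallest p that were higher (top) and lower (bottom) in the CD24/CD29 group, labelled by gene and protein change; each point is a library, red for the CD24/CD29 group and blue for the Thy/6C3/CD105 group, circles for replicate 1 and triangles for replicate 2. A single high triangle at 1.06% to 1.43% marks each of the 5 upper alleles, in CD24_CD29 for 4 and in CD29 for ND3 A21T, and in TrnH the replicate 2 points of the groups lie apart, at 0.389% to 1.49% and 1.94% to 2.76%.

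Alleles whose fractions did not overlap between the groups were then counted within a replicate number. In replicate 1, 38 alleles had all 3 CD24/CD29 libraries above all 4 others (1.09% of alleles tested) and 157 had them below (4.52%). In replicate 2 the counts were 33 (0.95%) and 91 (2.62%). The lower side held 69 A>C and 53 T>G alleles in replicate 1, and 33 and 13 in replicate 2. These are the classes raised in Thy replicate 2, but that library takes no part in the replicate 1 counts. A>C made 41.4% and T>G 22.0% of all alleles tested. Why these classes were frequent on the lower side of replicate 1 was not tested. Among the 1273 alleles of the other classes, 22 were higher (1.73%) and 35 lower (2.75%) in replicate 1, and 33 higher (2.59%) and 45 lower (3.53%) in replicate 2. The 33 higher alleles of replicate 2 comprised 14 T>C, 8 A>G, 8 C>T, 2 G>A and 1 A>T. The 1273 alleles held 273 T>C, 206 A>G, 257 C>T, 65 G>A and 210 A>T. Of the A>C and T>G alleles tested, 2178 had reached 1% in Thy replicate 2. The filter itself thus kept most of them off the higher side of replicate 2. The total of 124 non-overlapping alleles in replicate 2 became 207 without Thy, over 6 libraries in place of 7.

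The replicates did not share these alleles. None was higher without overlap in both replicates (0%), and 2 were lower in both (0.0576%), A4924C and T7997G. Both reached 1% in Thy replicate 2 and in no other library, so they entered the alleles tested through the group in which they were then the higher, and their count supports nothing. T7997G (ATP6 I24S) had 0.213%, 0.219% and 0.206% in replicate 1 against 0.223%, 0.229%, 0.226% and 0.224%. The gap between 0.219% in CD24_CD29 and 0.223% in Thy lay far inside the exact 95% interval of the first, 0.14% to 0.325%. A4924C (ND2 L337L) had 0.258%, 0.273% and 0.245% against 0.323%, 0.287%, 0.352% and 0.355%, again with overlapping intervals between CD24_CD29 (0.173% to 0.409%) and 6C3 (0.22% to 0.366%). In replicate 2 both alleles were highest in Thy, at 1.11% and 2.47%, and the other libraries of that group had 0.252% to 0.289% and 0.284% to 0.386%.

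Non-overlapping alleles of higher fraction lay in transfer RNA, ribosomal RNA and respiratory chain genes. In replicate 1, C6918T in TrnS1 had 1.21% in CD24, 1.204% in CD24_CD29 and 1.67% in CD29, against 4.13% in Thy, 2.22% in 6C3, 2.31% in Thy_6C3 and 2.04% in CD105. G5026A in TrnA, the transfer RNA for alanine, had 3.37%, 3.30% and 2.59% against 3.92%, 4.90%, 5.58% and 3.84%. Its exact 95% intervals in CD24 (3.09% to 3.68%) and CD105 (3.64% to 4.05%) overlapped. C12066T (ND5 H109Y) had 3.07%, 1.90% and 3.22% against 3.69%, 3.221%, 4.06% and 3.798%, with CD29 just under 6C3. In replicate 2 these 3 alleles were at or below 0.676% in all 7 libraries, so the second replicate holds no comparable level.

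On the higher side of replicate 1, C416T in mt-Rnr1, the RNA of the small ribosomal subunit, had 1.51%, 1.32% and 2.096% against 0.644%, 1.17%, 0.852% and 1.06%. Its exact 95% intervals in CD24_CD29 (1.115% to 1.546%) and 6C3 (1.045% to 1.3%) overlapped. C10631T, synonymous in ND4 (I155I), had 1.45%, 2.12% and 1.72% against 0.972%, 0.772%, 1.41% and 1.05%. CD24 at 1.445% (265 counts) lay just above Thy_6C3 at 1.414% (305 counts). T14833C (CYTB L230P) was high in CD29 alone, at 1.92%, with 0.383% and 0.5262% in CD24 and CD24_CD29 and 0.175% to 0.296% in the second group. Its group mean of 0.942% ± 0.848 (SD, n = 3) therefore rests on 1 library.

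In replicate 2, C14149T (CYTB T2M) and C7621T, synonymous in COX2 (N203N), followed the order of A11579G. C14149T had 0.628% in CD24, 0.494% in CD24_CD29 and 1.203% in CD29, against 3.03% in Thy, 1.62% in 6C3, 2.40% in Thy_6C3 and 2.57% in CD105. C7621T had 0.721%, 0.51% and 1.06% against 2.11%, 1.63%, 2.74% and 2.92%. In all 3 alleles CD24_CD29 was the lowest library, CD29 the highest of its group and 6C3 the lowest of the other group, and the left-out CD45 library lay between CD29 and the highest of the second group, at 1.43% to 1.93%. In replicate 1 the difference of C7621T pointed the other way, with a mean of 0.634% ± 0.676 (SD, n = 3) against 0.204% ± 0.0707 (SD, n = 4), and the test of that change between replicates gave an edgeR adjusted p of 0.955.

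On the higher side of replicate 2 stood C3118T (ND1 S123L), with 1.41%, 2.99% and 1.37% against 0.5257% to 1.11%, and T9609C (ND3 F51L), with 0.926%, 3.11% and 1.12% against 0.519% to 0.857%. CD24_CD29 was the highest library in both. For C3118T the exact 95% intervals of CD29 (1.227% to 1.519%) and 6C3 (0.976% to 1.259%) overlapped. C14024T (ND6 C16Y), in the one protein gene that is encoded on the other strand from the rest, had 10.5% in CD24, 9.87% in CD24_CD29 and 9.54% in CD29, against 8.92% in Thy, 8.15% in 6C3, 7.27% in Thy_6C3 and 9.42% in CD105. The groups did not overlap, but the exact 95% intervals of CD29 (9.31% to 9.78%) and CD105 (9.10% to 9.74%) did. In replicate 1 the allele ran from 3.74% in CD24 to 7.49% in CD24_CD29, on both sides of the 4.52% to 5.20% of the second group (log2 odds ratio 0.22 ± 0.295 SE; edgeR adjusted p = 0.871).

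The 3 alleles with the smallest p for a difference between replicates were missense changes in complex I subunits, and none of them passed. C9766T (ND3 A103V) had 0.0447%, 0% and 0.0491% in CD24, CD24_CD29 and CD29 of replicate 1, against 0.198%, 0.185%, 0.503% and 0.0985% in Thy, 6C3, Thy_6C3 and CD105. In replicate 2 it had 0.847%, 1.32% and 0.558% against 0.17%, 0.259%, 0.0827% and 0.696%. The CD24/CD29 libraries were thus all lower in replicate 1, while in replicate 2 they were higher but for the overlap of CD29 with CD105 (edgeR adjusted p = 0.955 for the difference between replicates). T13336C (ND5 I532T) and G10075A (ND4L A67T) were highest in CD24_CD29 replicate 2, at 1.05% and 1.52%, and had 0.00566% and 0.0149% in CD24_CD29 replicate 1 (edgeR adjusted p = 0.955 for both). All 3 alleles reached 1% in CD24_CD29 replicate 2 alone, and through it entered the alleles tested.

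**Figure D3:**
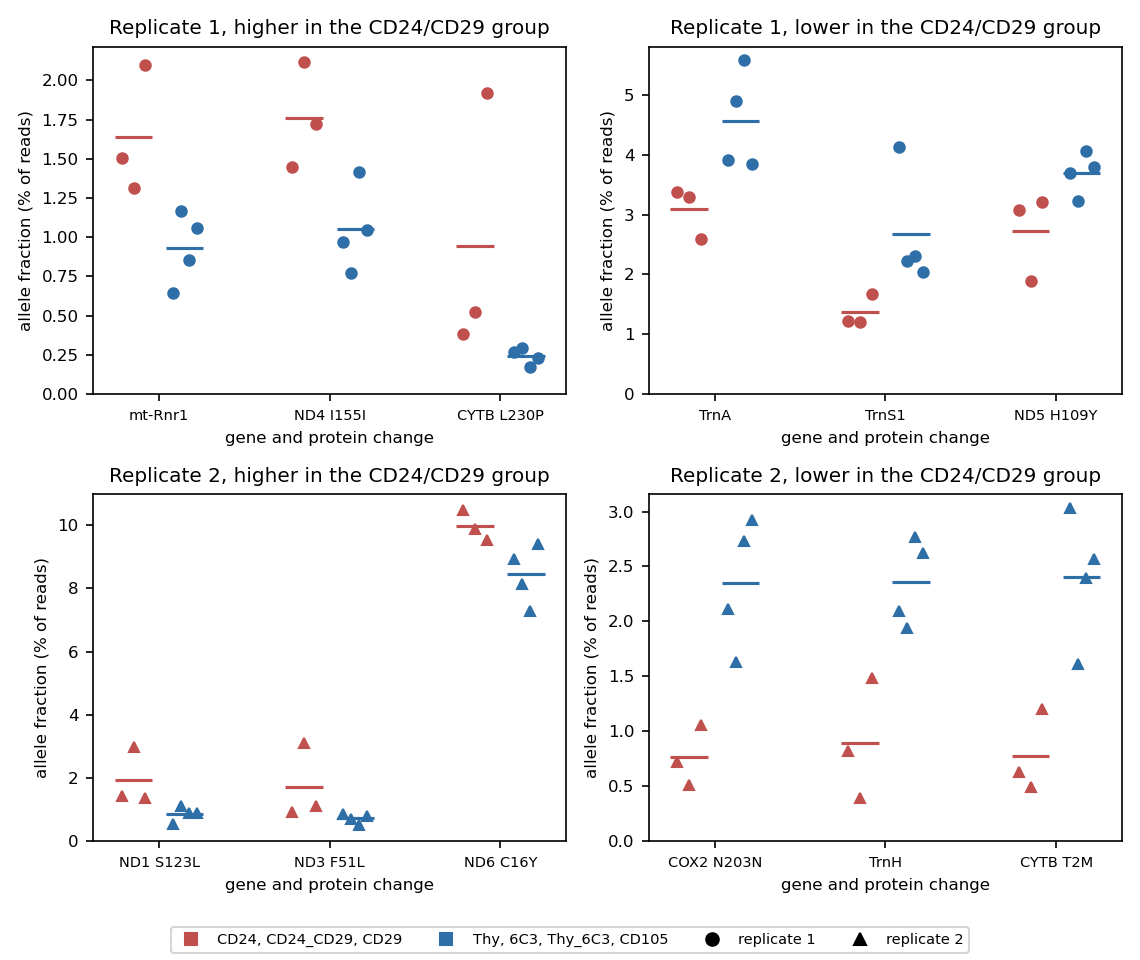
Allele fraction in percent of reads for 12 alleles whose groups did not overlap in replicate 1 (top, circles) or replicate 2 (bottom, triangles), labelled by gene and protein change; each point is a library and each short line a group mean. The panels at the right show the CD24/CD29 group lower, with TrnH, CYTB T2M and COX2 N203N of replicate 2 below 1.5% in that group and above 1.6% in the other.

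The alleles with the highest fractions stood at similar levels in both groups. In replicate 1, C10658T, synonymous in ND4 (L164L), had a mean of 19.8% ± 1.85 (SD, n = 3) in the CD24/CD29 group and 17.1% ± 1.74 (SD, n = 4) in the other, and CD29 at 18.0% lay below CD105 at 19.7%. G3079A (ND1 S110N) had 18.1% ± 2.01 (SD, n = 3) and 16.8% ± 1.54 (SD, n = 4). In replicate 2, C11959T (ND5 S73L) had 22.7% ± 0.673 (SD, n = 3) and 21.8% ± 2.80 (SD, n = 4), and C1051T, in TrnV, the transfer RNA for valine, 13.95% ± 4.06 (SD, n = 3) and 15.2% ± 1.23 (SD, n = 4). For C1051T the whole spread of the 7 libraries lay inside the CD24/CD29 group, from 9.80% in CD24_CD29 to 17.9% in CD24. None of these differences passed (edgeR adjusted p = 0.871 or more).

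High alleles moved together from library to library, in sets that crossed the grouping. Over the 7 libraries of replicate 1, T2674A (mt-Rnr2), C7166T (COX2 H52Y) and C7953T, which lies where ATP8 and ATP6 overlap and reads as S63L in the first and F9F in the second, correlated with each other at Pearson r = 0.906 to 0.974. G3079A and C10658T formed a second set, at r = 0.896. T2674A had 11.2% in CD24, 6.99% in CD24_CD29, 9.63% in CD29, 11.7% in Thy, 9.63% in 6C3, 8.95% in Thy_6C3 and 9.23% in CD105, and C7166T had 11.3%, 7.38%, 9.15%, 11.02%, 9.60%, 8.76% and 9.39%. The highest values of both were thus in CD24 and Thy, one from each group, and the lowest in CD24_CD29. In replicate 2, C3085T (ND1 S112L) and T13093A (ND5 M451K) correlated at r = 0.842, and both ran opposite to C1051T (r = -0.788 and -0.868). With the 2 libraries farthest from the median left out, the pairs T2674A with C7166T, G3079A with C10658T and C3085T with T13093A had r of 0.967, 0.806 and 0.906, and T2674A and C7166T had 0.953 and 0.877 with C7953T. The opposite relation of C1051T was -0.816 with C3085T and weaker, at -0.585, with T13093A. These are descriptions over 7 libraries that share a replicate number, and reads that link distant positions were not used here.

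Alleles that reached the 1% threshold in each of the 7 libraries with one replicate number, called widespread, had similar mean fractions in the groups. There were 53 in replicate 1 and 60 in replicate 2. The ratio of the CD24/CD29 mean to the Thy/6C3/CD105 mean had a median of 1.03 in replicate 1, with quartiles of 0.941 and 1.10, and of 1.02 in replicate 2, with quartiles of 0.921 and 1.10. Ratios above 1 were found for 32 of 53 and 33 of 60 alleles. The lowest ratio of replicate 1 was 0.51, for C6918T, and the highest 1.40, for C12515T, synonymous in ND5 (F258F). In replicate 2 the range was from 0.72 for A16099C, in the control region, to 1.51 for C11260T (ND4 A365V).

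Widespread alleles were the base for a comparison between replicates, since 24 of them were widespread in both. Of these, 12 were higher in the CD24/CD29 group in both replicates, 2 were lower in both and 10 changed sides. Most of the 24, and most of the 12, lay in a single stretch of the control region, from A16099C to T16150A. Alleles there can share a position, as T16105A and T16105G do, and whether they vary independently was not tested. The control region, 5.38% of the positions, held 18 of the widespread alleles in each replicate, and complex I genes held 18 and 19. Of the 53 of replicate 1, 5 were lower without overlap in the CD24/CD29 group and 0 higher. Besides G5026A, C6918T and C12066T these were C5692T (COX1 A122V), at a ratio of 0.83, and T10288C (ND4 L41P), at 0.90. Over all alleles tested, the shares without overlap in replicate 1 were 4.52% lower and 1.09% higher. Of the 60 of replicate 2, C14024T was the only one without overlap, on the higher side. There the shares over all alleles tested were 2.62% lower and 0.95% higher.

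**Figure D4:**
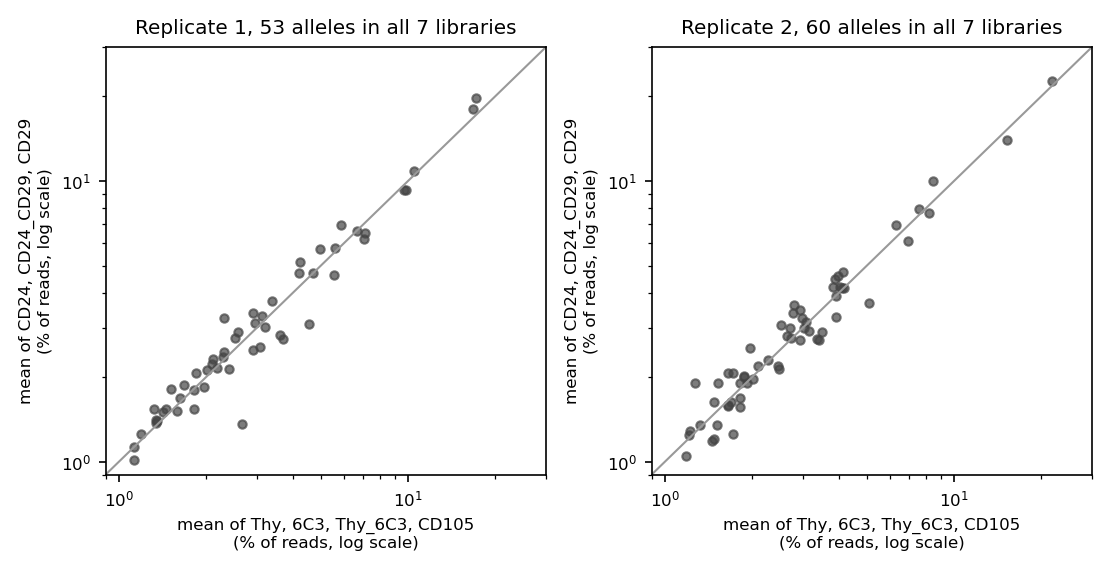
Mean fraction of each widespread allele in the CD24/CD29 group against that in the Thy/6C3/CD105 group, in percent of reads on log scales, for replicate 1 (53 alleles) and replicate 2 (60 alleles); the grey line marks equal means. Most points lie near the line, with median ratios of 1.03 and 1.02, and the point farthest below it in replicate 1 is C6918T at a ratio of 0.51.

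Most counted alleles were counted in a single library, 328 of 488 in replicate 1 and 2908 of 3115 in replicate 2, and these lie in 1 group by definition. Of the 2908, 2375 were those of Thy replicate 2. Alleles counted in more libraries were mostly found in both groups. Of the 160 alleles counted in 2 or more of the 7 libraries of replicate 1, 145 were counted in both groups, 6 in the CD24/CD29 group alone and 9 in the Thy/6C3/CD105 group alone. Of the 207 such alleles of replicate 2, 173 were counted in both groups, 15 in the first alone and 19 in the second alone. The 145 and the 173 include the 53 and 60 alleles counted in all 7 libraries, so these counts are partly fixed in advance. Of the 19, 12 were shared by Thy and Thy_6C3 alone, 3 by Thy and CD105 and 2 by Thy and 6C3. All of these rest on Thy replicate 2, and the counts were not made without it. The 30 alleles counted in exactly 2 libraries, 1 of each group, made 69.8% of the 43 such alleles in replicate 1, and 45 of 78 (57.7%) did so in replicate 2, where 12 of the 21 library pairs (57.1%) join the groups. The most frequent pair joined CD24_CD29 to 6C3 in replicate 1, with 8 alleles, and CD24_CD29 to Thy in replicate 2, with 18. The second of these pairs holds Thy replicate 2.

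One allele was counted in all 3 CD24/CD29 libraries and in no other of its replicate: A10077G, synonymous in ND4L (A67A). It had 1.07% in CD24, 1.44% in CD24_CD29 and 1.002% in CD29 of replicate 1, against 0.261% in Thy, 0.569% in 6C3, 0.705% in Thy_6C3 and 0.512% in CD105, and 0.0451% to 0.524% in the CD24/CD29 libraries of replicate 2. It was present in every library of replicate 1, so the 1% threshold, not absence, set the count. T16152A, in the control region, lay close to the threshold in the same way, with 1.08% and 1.02% in CD24 and CD24_CD29 of replicate 1 and 0.752% to 0.901% in the second group. T6712C (COX1 L462P) lay farther above it, with 1.35% and 1.49% in CD24 and CD24_CD29, 0.652% in CD29 and 0.451% to 0.82% in the second group.

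Of the 15 alleles of replicate 2 limited to the CD24/CD29 group, 10 were shared by CD24_CD29 and CD29, 4 by CD24 and CD24_CD29 and 1 by CD24 and CD29. C4039T, synonymous in ND2 (P42P), had 2.17% in CD24_CD29, 1.05% in CD29 and 0.467% in CD24, against 0.196% to 0.603% in the other group. A11565C, in TrnH, had 2.94% in CD24_CD29, 1.03% in CD24 and 0.735% in CD29, against 0.178% to 0.882%. In replicate 1 both alleles were at 0.0520% to 0.768% in all 7 libraries.

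No allele was counted in all 4 Thy/6C3/CD105 libraries of a replicate and in none of the others. The nearest in replicate 1 was A5328G, in the start codon of COX1, the catalytic core of cytochrome c oxidase. The change turns ATG into GTG, which the vertebrate mitochondrial code also lists as a start codon. No protein change is therefore read from this allele. It had 1.23% in Thy, 1.29% in 6C3, 0.83% in Thy_6C3 and 1.249% in CD105, against 0.83% in CD24, 0.105% in CD24_CD29 and 0.68% in CD29. C3875T, in the anticodon of TrnM, the transfer RNA for methionine, had 1.58% in Thy and 1.70% in Thy_6C3, with 0.751% in 6C3, 0.508% in CD105 and 0.055% to 0.70% in the CD24/CD29 group. In replicate 2 its order was different, since CD24_CD29 had 3.22% and the Thy/6C3/CD105 libraries 0.0754% to 0.596%. In replicate 2, T2539G in mt-Rnr2 was limited to the second group through Thy (1.60%) and CD105 (7.64%), with 0.245% and 0.248% in 6C3 and Thy_6C3 and 0.245% to 0.486% in the first group. T2539G belongs to a class raised in Thy replicate 2, and without that library it was counted in CD105 alone. CD105 replicate 2 alone held a high level of that allele, since CD105 replicate 1 had 0.255%.

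Libraries of different groups were not farther apart than libraries of the same group. The distance was the root mean square difference of arcsine square root fractions over the 3475 alleles within a replicate number, so a larger value means less alike libraries. In replicate 1, the 12 pairs between the groups had a mean of 0.0167, the 3 pairs within the CD24/CD29 group 0.02 and the 6 pairs within the Thy/6C3/CD105 group 0.0141. In replicate 2 these were 0.0316, 0.0262 and 0.0396, the last with Thy replicate 2 in 3 of its pairs. The mean between the groups exceeded that within by -0.00147, a negative value, which means that pairs within a group were on average no closer (exact permutation p = 0.629, two-sided, over 35 arrangements of the subsets). Without Thy replicate 2 the difference was -3.945e-05 (exact permutation p = 1).

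The closest pair joined the groups in each replicate: CD29 with CD105 in replicate 1, at 0.01, and CD24 with 6C3 in replicate 2, at 0.0118. The CD24/CD29 group was the more spread out of the 2, and CD24_CD29 was its member far from all others. Without Thy replicate 2, the mean within the CD24/CD29 group was 0.0338 in replicate 1 and 0.0432 in replicate 2, against 0.0277 and 0.0357 between the groups and 0.0231 and 0.0303 within the Thy/6C3/CD105 group. The 2 CD24_CD29 libraries are the shallowest of their replicates and also hold the most counted alleles after Thy replicate 2, and the part of depth in their distance was not tested.

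**Figure D5:**
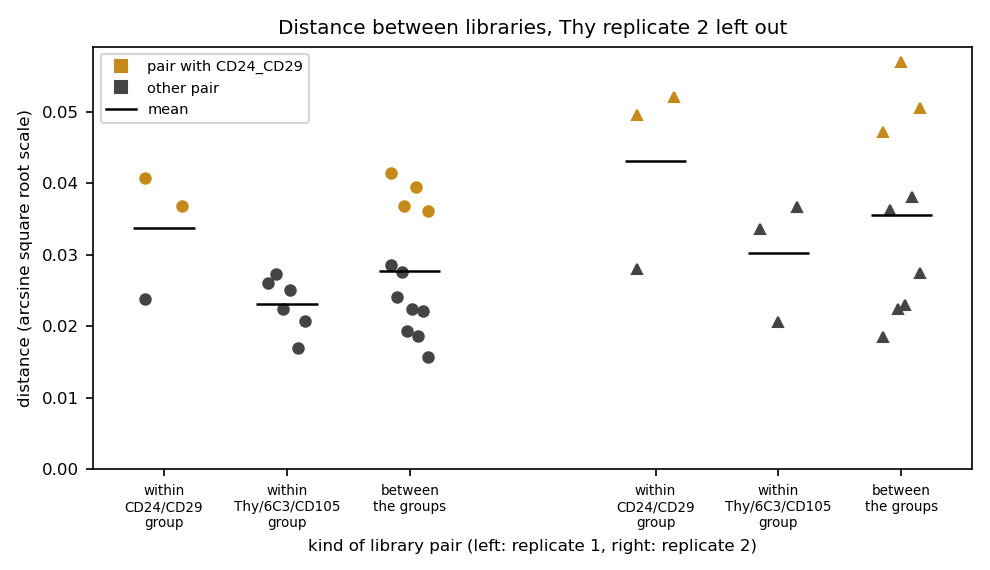
Distance between 2 libraries of the same replicate number (root mean square difference of arcsine square root allele fractions, Thy replicate 2 left out), for pairs within the CD24/CD29 group, within the Thy/6C3/CD105 group and between the groups, with replicate 1 at the left and replicate 2 at the right; ochre points are pairs with CD24_CD29 and lines are means. Pairs between the groups span the range of the pairs within them in both replicates, and pairs with CD24_CD29 are the most distant in both replicates.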

How the data were processed

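Bulk ATAC-seq libraries were sorted by label into 2 groups. The authors deposited raw counts in whole numbers: for 16299 mitochondrial positions, the coverage and the reads with each other base. BWA 0.7.17, cutadapt 2.10, bcl2fastq 2.20 and the builds GRCm38 and mm10 are named, without a role, per the submitters' processing notes. The sources used here give no base or mapping quality filter, no duplicate removal and no treatment of nuclear mitochondrial copies, and each can shift low fractions. A single coverage value deposited in exponent form was read as a whole number.

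An allele fraction was the non-reference count over coverage. RefSeq genes of GRCm38.p6 were used, and codons were read with the vertebrate mitochondrial code. At a start codon only codons beginning with AT were kept as methionine, so that a change to GTG was counted as missense. Each of the 7 measures, 12 substitution classes and 7 regions was compared by an exact two-sided permutation test that exchanged libraries within a replicate number, with Benjamini-Hochberg adjustment within each family. Alleles were tested with edgeR 4.0.16 (quasi-likelihood, R 4.3.3, limma 3.58.1, DESeq2 1.42.0) on pairs of non-reference and reference counts, with a term per library, the replicate number as a block and 11 residual degrees of freedom. Each SE is the log2 odds ratio divided by the root of F. The script was tested on simulated data. Replicate numbers pair the samples: deviations of same-numbered libraries correlated in all 21 subset pairs (r = 0.344 to 0.850), as found from the data and not from the labels. Other steps used Biopython 1.88, matplotlib 3.10.9, pandas 2.3.3, scipy 1.17.1 and numpy 2.4.6 under Python 3.11.15.

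Named alleles were the 5 with the smallest p in each direction, the 5 with the highest mean per replicate, 3 non-overlapping alleles per replicate and direction, 3 per replicate and group counted in that group only, those non-overlapping in both replicates and the 3 with the smallest p for a difference between replicates. Further widespread alleles were named for their ratio after it was seen. Groups, lists and tests were chosen with earlier results of these data known. Alternatives varied the thresholds, block, test, depth, classes and libraries.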

Additional observations from a re-analysis of the deposited data

Results flagged for a closer look

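In each group of 6 or 8 libraries, the highest and the lowest library were compared with their neighbours for 26 quantities, 52 groups in all, and 23 values stood far from the rest, where chance flags about 1 in 20 groups. Of these, 20 were Thy replicate 2 in the Thy/6C3/CD105 group. It had a mutation load of 1.11%, a load of 0.216% from counted alleles and 2530 counted alleles. In it 2375 alleles were counted in no other library of replicate 2, and its transition share was 3.79%. Its mean fractions per 10000 were 76.5 for A>C, 66.5 for T>G, 36.7 for A>T, 42.8 for T>A, 54.9 for C>A, 56.8 for G>T, 10.7 for C>G and 18.2 for G>C. The load of its counted alleles was 0.248% in complex I genes, 0.229% in the complex III gene, 0.171% in complex IV genes, 0.220% in ATP synthase genes, 0.174% in ribosomal RNA genes, 0.183% in transfer RNA genes and 0.294% in the control region.

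The other 3 values were CD24_CD29 replicate 2 in the CD24/CD29 group, the shallowest library, whose A>C and T>G means were 14.2 and 12.2 per 10000, with a load of 0.0588% in ribosomal RNA genes. The CD45 libraries, which entered no comparison, held 121 and 129 counted alleles in replicates 1 and 2.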

How the results depend on the processing

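All 28 alternatives to the edgeR group test called 0 alleles, over 314 to 48817 alleles tested, with lowest adjusted p from 0.0749 (no filter on the fraction) to 1. The 10 alleles with the smallest p kept direction and side of the threshold in all 262 values. All but A11579G had entered the test through a single library of the group in which they were higher, so the kept direction supports nothing. Without the replicate block the edgeR test had 31 alleles at an unadjusted p under 0.05, and the block changed no call. Signs turned, with no test passing, without the Thy subset for the load of counted alleles (0.00612), their number (64) and alleles in a single library (59.7), and with A>C and T>G left out for the number (32.9), the load of counted alleles (0.00398), alleles in a single library (31.8) and the distance (0.00111). At a threshold of 2% the protein-changing share (0.231) and the distance (8.842e-05) turned. Log2 depth turned without the CD24_CD29 subset, left out after seeing the data (0.27), and without CD24_CD29 replicate 2 (0.0381). Leaving out Thy replicate 2 turned the load of counted alleles (0.00586), their number (61.7) and alleles in a single library (57). The cause was not tested.

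Leaving out 1 library at a time gave ranges of -0.69 to 0.0381 for log2 depth, -0.123 to -0.00607 for load, -0.0272 to 0.00586 for the load of counted alleles, -340.1 to 61.7 for their number, 3.98 to 13.9 for the transition share, -4.14 to -1.19 for the protein-changing share, -338.7 to 57 for alleles in a single library and -0.00392 to -3.945e-05 for the distance. Classes, regions, called alleles and differences between replicates stayed at 0. Counts of non-overlapping alleles, which rise by construction with fewer libraries, ran from 195 to 589 in replicate 1 (589 without CD29), from 124 to 579 in replicate 2 (579 without CD24_CD29) and from 2 to 19 in both. In the shallowest library, fractions under 0.0457% could not be told from 0.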
